A study of Mus musculus with 8 samples.

Results

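Satellite cells cultured with a control siRNA were compared with freshly isolated, quiescent satellite cells by ATAC-seq, which reads open chromatin from where the Tn5 transposase inserts its adapters. The comparison took the peak lists of the 2 LncMyod Control libraries and the 2 QSC libraries, 4 of the 8 libraries of the series. All cells came from hindlimb skeletal muscle of C57BL/6 mice. LncMyod Control cells were grown in F10 medium with 10% HS and P/S and received a control siRNA, whereas QSC were profiled straight after isolation and received no treatment. The other 4 libraries entered the merging of regions and the estimate of the spread between replicates, and their own values are given for some regions and loci. They were 2 LncMyod Knockdown libraries (culture with an siRNA against LncMyod, a noncoding RNA named for its place beside the MyoD gene) and 2 ASC libraries (cells isolated 2.5 days after injury). An siRNA exposure of 48 h is recorded for the LncMyod siRNA and no time for the control siRNA. Culture, siRNA exposure and time after isolation go together in LncMyod Control and cannot be told apart. The labels name no stage of differentiation, no age and no method of purifying the cells. Nor do they state whether replicates are separate animals or cultures. The p-values therefore rest on the spread between samples that may differ only technically.

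Satellite cells are the stem cells of skeletal muscle. In resting muscle they carry Pax7 and stay out of the cell cycle, held there in part by Notch signalling. When activated they divide as myoblasts under Myf5 and MyoD, and then leave the cycle, switch on myogenin and the sarcomere genes, and fuse into multinucleated fibres. MyoD and myogenin bind E-box sequences in DNA and act there with Mef2 factors, while serum response factor binds the CArG box of actin genes.

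A region here is a stretch of DNA made by merging overlapping peaks of all 8 libraries. It was called LncMyod Control-specific when both LncMyod Control libraries and neither QSC library had a peak in it, and QSC-specific in the opposite case. For each gene, covered length is the number of base pairs under peaks within the gene body and 10 kb on both sides of it, scaled to a common total per library and given in kb. "Rose" and "fell" refer to covered length past an adjusted p of 0.05 (limma, Benjamini-Hochberg over all loci tested), in LncMyod Control relative to QSC. Changes in log2 were taken after adding 500 bp, so changes at loci with few covered bases are understated.

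The LncMyod Control libraries held 82854 and 81327 peaks over 52.4 and 52.3 Mb, and the QSC libraries 69595 and 64991 peaks over 50.7 and 47.1 Mb. Median peak widths were 489 and 501 bp in LncMyod Control and 597 and 601 bp in QSC. A −log10 q of at least 5 was reached by 69.9% and 66.8% of LncMyod Control peaks and by 61.9% and 58.1% of QSC peaks. The lists carry no read counts, so depth is unknown, and lack of a peak does not establish closed chromatin. All 8 loci fixed as marks of muscle lineage cells (Pax7, Myf5, Myod1, Cdh15, Itga7, Vcam1, Calcr and Myog) had peaks in each of the 4 libraries. Such peaks are common, since 47.5% of all gene starts had a peak within 1 kb in all 4. The share of all loci with peaks in all 4 was not counted, so these peaks do not establish what the cells were.

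The DNA just upstream of 6 muscle fibre genes is shown. These were picked as examples from more listed promoters of the same pattern, such as those of Myh8, Tnnt1 and Trim63. The 6 gene starts had a peak in both LncMyod Control libraries and in neither QSC library. They belong to Acta1 (skeletal alpha-actin), Actc1 (cardiac alpha-actin, also made in young muscle), Klhl41 (a Kelch protein of the thin filament), Capn3 (the muscle calpain protease), Mb (myoglobin) and Casq2 (calsequestrin, which stores calcium inside the fibre). Each line gives the 250 bases before the gene start, 5′ to 3′ on the strand of the gene, from RefSeq, build GRCm38.p6. Capitals mark CAGCTG (the E-box form most used by MyoD and myogenin), a Mef2 site or a CArG box.
Acta1 (chr8:123894776-123895025, minus strand): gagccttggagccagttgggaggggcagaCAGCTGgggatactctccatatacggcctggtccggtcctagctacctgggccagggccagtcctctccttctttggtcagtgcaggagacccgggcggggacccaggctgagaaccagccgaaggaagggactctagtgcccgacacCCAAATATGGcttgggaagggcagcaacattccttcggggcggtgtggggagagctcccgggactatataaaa
Actc1 (chr2:114052876-114053125, minus strand): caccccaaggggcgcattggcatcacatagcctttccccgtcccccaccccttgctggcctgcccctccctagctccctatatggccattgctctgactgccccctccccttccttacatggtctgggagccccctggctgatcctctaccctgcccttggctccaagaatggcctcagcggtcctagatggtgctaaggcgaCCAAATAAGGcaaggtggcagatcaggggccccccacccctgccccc
Klhl41 (chr2:69669870-69670119, plus strand): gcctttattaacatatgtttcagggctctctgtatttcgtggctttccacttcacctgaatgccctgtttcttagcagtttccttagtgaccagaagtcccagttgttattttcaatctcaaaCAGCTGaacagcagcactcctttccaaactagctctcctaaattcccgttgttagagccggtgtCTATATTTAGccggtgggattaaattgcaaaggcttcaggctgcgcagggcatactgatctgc
Capn3 (chr2:120463343-120463592, plus strand): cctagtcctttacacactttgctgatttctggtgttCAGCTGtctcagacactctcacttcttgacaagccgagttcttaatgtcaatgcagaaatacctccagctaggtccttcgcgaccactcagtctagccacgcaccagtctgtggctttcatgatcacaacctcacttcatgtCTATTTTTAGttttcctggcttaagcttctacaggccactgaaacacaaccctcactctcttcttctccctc
Mb (chr15:77022788-77023037, minus strand): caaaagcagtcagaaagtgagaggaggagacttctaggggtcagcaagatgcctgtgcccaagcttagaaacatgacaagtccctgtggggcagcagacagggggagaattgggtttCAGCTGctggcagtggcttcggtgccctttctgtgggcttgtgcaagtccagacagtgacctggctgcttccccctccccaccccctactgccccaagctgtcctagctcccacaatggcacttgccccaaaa
Casq2 (chr3:102086165-102086414, plus strand): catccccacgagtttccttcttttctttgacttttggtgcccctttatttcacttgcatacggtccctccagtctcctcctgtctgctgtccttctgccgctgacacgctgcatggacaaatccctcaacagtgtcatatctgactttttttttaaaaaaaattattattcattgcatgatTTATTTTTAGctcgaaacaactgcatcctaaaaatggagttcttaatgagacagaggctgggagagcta
Acta1 holds a CAGCTG and a CArG box, Actc1 a CArG box, Klhl41 and Capn3 a CAGCTG and a Mef2 site, Mb a CAGCTG and Casq2 a Mef2 site. The motifs were rarer over the whole class. Of the 528 promoters with a LncMyod Control-specific peak, 33.5% had a CAGCTG, 5.87% a Mef2 site and 2.08% a CArG box. Both LncMyod Knockdown libraries also had a peak at each of these 6 promoters. Among them, only Klhl41 had a peak in the ASC libraries, in both. A pair of promoters with the opposite pattern is shown for contrast, Bmp4 (a secreted growth factor of the BMP family) and Tenm4 (a teneurin, a large membrane protein of cell contacts). Both had a peak in the 2 QSC libraries and in no other library, and no base is in capitals because none of the 3 motifs occurs. These 2 are picked examples as well, since 15.7% of the 484 promoters with a QSC-specific peak had a CAGCTG.
Bmp4 (chr14:46390670-46390919, minus strand): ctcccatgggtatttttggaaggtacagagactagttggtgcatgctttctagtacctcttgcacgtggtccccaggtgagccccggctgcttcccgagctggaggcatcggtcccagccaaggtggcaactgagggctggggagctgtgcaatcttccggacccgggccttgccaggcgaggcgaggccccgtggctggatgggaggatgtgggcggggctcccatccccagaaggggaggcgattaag
Tenm4 (chr7:96170994-96171243, plus strand): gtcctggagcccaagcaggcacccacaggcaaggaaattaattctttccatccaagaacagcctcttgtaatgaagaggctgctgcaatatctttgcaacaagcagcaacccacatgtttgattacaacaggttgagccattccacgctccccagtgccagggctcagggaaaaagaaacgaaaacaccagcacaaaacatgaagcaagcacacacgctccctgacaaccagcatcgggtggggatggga

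Peaks specific to one state were many. Of 141310 merged regions, 21843 (15.5%) were LncMyod Control-specific, 11437 (8.09%) were QSC-specific and 43702 were held by all 4 libraries. The specific regions were small and mostly away from gene ends. Their median width was 560 bp for LncMyod Control-specific and 602 bp for QSC-specific regions, against 1079 bp for regions held by all 4. Regions with a gene end within 1 kb made up 9.14% of the LncMyod Control-specific class, 7.57% of the QSC-specific class and 34.8% of the class held by all 4. The excess on the LncMyod Control side depended on the lengths and thresholds of the lists. With all lists cut to equal length, 14157 regions were LncMyod Control-specific and 13801 QSC-specific, and with peaks of −log10 q of at least 5 the counts were 18538 and 6317. No test was made of these counts, since the smallest p that an exact permutation test of 2 libraries against 2 allows is 0.33.

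The ratio of LncMyod Control-specific to QSC-specific regions differed between chromosomes. It was highest on chromosome 11 (1435 against 494 regions, a ratio of 2.9) and lowest among the autosomes on chromosome 10 (970 against 760, a ratio of 1.28). Chromosome X had 376 and 277 regions, a ratio of 1.36.

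The libraries outside the comparison divided the regions. Both LncMyod Knockdown libraries held 64.8% of the LncMyod Control-specific regions and 3.08% of the QSC-specific regions, against 91.9% of those held by all 4. Both ASC libraries held 24.5% of the LncMyod Control-specific regions, 11.5% of the QSC-specific regions and 84.1% of those held by all 4. Thus 30.9% of the LncMyod Control-specific regions were in both LncMyod Knockdown libraries and in neither ASC library. Of the QSC-specific regions, 64.0% were in none of the other 4 libraries.

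**Figure D1:**
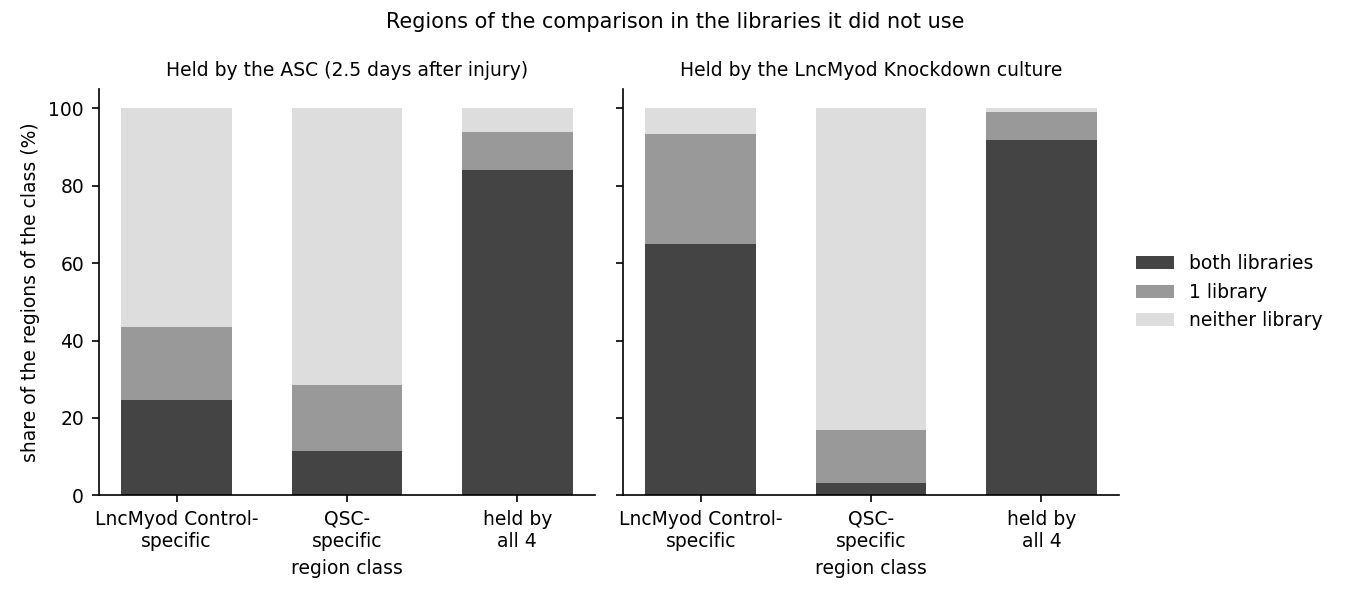
Share of regions of each class (vertical axis, percent) held by both, 1 or neither of the ASC libraries (left) and of the LncMyod Knockdown libraries (right). Most LncMyod Control-specific regions (64.8%) were held by both LncMyod Knockdown libraries, and most QSC-specific regions were held by neither ASC library (71.5%) and by neither LncMyod Knockdown library (83.1%).

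The strongest specific regions, ranked within each library by the authors' fold enrichment, lay mostly outside annotated muscle genes. The first LncMyod Control-specific region, on chromosome 12 from 77887330 to 77887907 (mm10), had fold enrichments of 14.1 and 14.3 and lay 74495 bp from the nearest gene, Gm35488. It was also held by all 4 other libraries, at 7.26 and 6.73 in ASC and 9.51 and 7.49 in LncMyod Knockdown. The second, on chromosome 3 from 61097053 to 61097487, had 13.2 and 11.9 in LncMyod Control, 9.51 and 5.53 in LncMyod Knockdown, and no peak in ASC. Its nearest gene is P2ry1, a purinergic receptor gene, 88071 bp away. Regions inside B3galt1, a galactosyltransferase gene, and Rbms3, an RNA-binding protein gene, were also among the first 6. On the QSC side the first region, on chromosome 10 from 11274330 to 11274905, had 11 and 10.3 and lay 6425 bp from Fbxo30, which encodes an F-box ubiquitin ligase subunit described in muscle wasting. Others of the first 6 lay inside Cabcoco1, Ssh2 (a cofilin phosphatase) and Ppp1r12b (a myosin phosphatase subunit). None of the 6 had a peak in LncMyod Knockdown, and 3 had one in ASC replicate 1, at 2.75 to 3.69. These folds are relative to the local background of each library.

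Covered length changed at 4726 of 27938 gene loci tested (16.9%), with 2783 rising (9.96%) and 1943 falling (6.95%). The median log2 change over all loci was 0.00. The number of calls depended on every library. Without LncMyod Control replicate 1 or 2 it was 1180 or 1038, and without QSC replicate 1 or 2 it was 1291 or 1016, in fits where the lone library is assumed to vary like the other groups. Without scaling, 2174 loci rose and 1014 fell. Neighbouring loci share peaks and are not independent.

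Sarcomere loci rose more often than they fell. Of 60 tested, 24 rose, 3 fell and 33 did not pass, against 9.96% rising and 6.95% falling over all loci, and their median log2 change was 0.60. Summed over the list, covered length came to 245 and 242 kb in LncMyod Control against 159 and 158 kb in QSC. Their loci held 100 LncMyod Control-specific and 29 QSC-specific regions, against 23292 and 10904 summed over all loci tested. The loci that rose included scaffold genes and filament genes.

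Among the scaffold genes, Ttn (titin, the giant spring of the sarcomere; chromosome 2, 76703980 to 76982557) had 15.8 and 13.8 kb in LncMyod Control, against 3.19 and 2.18 kb in QSC (log2 change 2.28, SE 0.47, adjusted p = 0.0199). Neb (nebulin, which runs along the thin filament) had 5.43 and 5.37 kb in LncMyod Control, against 1.45 and 1.17 kb in QSC (log2 change 1.71, SE 0.22, adjusted p = 0.00531). Klhl41, a Kelch protein that stabilises nebulin, had 3.16 and 2.64 kb in LncMyod Control and was listed at 0 in both QSC libraries (adjusted p = 0.00169). The groups did not overlap in any of them, which adds little at loci that passed the threshold on the same values. Klhl41 was named by its p, and Ttn and Neb as fixed lineage genes. The Ttn call was lost with lists of equal length (log2 change 0.48, adjusted p = 0.291), by number of peaks (adjusted p = 0.224), with peaks of −log10 q of at least 5 (0.05003), without scaling (0.0566) and with the gene body alone (0.0810). It was also lost without any 1 library (0.0953 to 0.150). Klhl41 held 5 LncMyod Control-specific regions, Neb 7 and Ttn 7, and Ttn alone of the 3 also held QSC-specific regions, 2. Myom2 and Myom3 (M-band proteins), Ldb3 and Myot (Z-disc proteins) and the anchoring genes Myoz2, Csrp3 and Capn3 also rose, as did Tmod1 and Lmod3, which cap or seed the thin filament. Myot had 1.26 and 0.995 kb in LncMyod Control and was listed at 0 in both QSC libraries (adjusted p = 0.00812).

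Of the filament genes, Myl1 (a fast myosin light chain) changed most. It had 5.26 and 5.77 kb in LncMyod Control, against 0.377 and 0.337 kb in QSC (log2 change 2.81, SE 0.42, adjusted p = 0.00788). Tnnt2 (cardiac troponin T, which immature skeletal muscle also makes) had 4.72 and 4.55 kb in LncMyod Control, against 1.45 and 1.21 kb in QSC (log2 change 1.49, SE 0.19, adjusted p = 0.00533). Acta1 had 4.28 and 3.94 kb in LncMyod Control, against 2.16 and 1.91 kb in QSC (log2 change 0.86, SE 0.12, adjusted p = 0.00606). With the gene body alone, the Acta1 change turned to −0.65, and by number of peaks it was 0.44 (adjusted p = 0.133). Actc1 (0.87), Actn3 (fast alpha-actinin, 1.03), Tnnt3 (1.33), Tnni1 (0.94), Tnni2 (1.05), Myl2 (0.71) and Mybph (1.58) also rose by these log2 changes. Tnni2 turned to −0.22 by number of peaks and Myl2 to −0.10 with lists of equal length.

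The myosin heavy chain genes did not move as one. Myh3, the embryonic form, had 6.29 and 6.01 kb in LncMyod Control, against 3.97 and 2.78 kb in QSC (log2 change 0.79, SE 0.21, adjusted p = 0.0464). Myh4, an adult fast form in the same cluster on chromosome 11, had 0.256 and 0.441 kb in LncMyod Control, against 1.6 and 1.32 kb in QSC (log2 change −1.22, SE 0.27, adjusted p = 0.0253). Myh2, another adult fast form, had 1.76 and 1.98 kb in LncMyod Control, against 3.42 and 3.26 kb in QSC (log2 change −0.70, SE 0.17, adjusted p = 0.0362), but turned to 0.37 with the gene body alone. Of the settings that left out none of the 4 libraries, Myh3 passed in 5 of 13, Myh2 in 9 of 13 and Myh4 in 7 of 11. With replicate number added to the model (the replicate block), Myh3 and Myh2 missed the threshold (adjusted p = 0.0527 and 0.0546). The difference between the forms was not tested. Nebl (nebulette, a nebulin relative best known from heart) also fell, with 4.19 and 4.33 kb in LncMyod Control, against 7.87 and 9.60 kb in QSC (log2 change −0.95, SE 0.20, adjusted p = 0.0219).

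Only Klhl41 and Acta1, of the 24 sarcomere loci that rose, passed in each of the 4 fits that left out 1 library. The list had 5 or 7 rising loci without LncMyod Control replicate 1 or 2, and 6 or 4 without QSC replicate 1 or 2, while adjusted p-values of the 24 ran from 0.0201 to 0.249. It had 13 by number of peaks, 14 with peaks of −log10 q of at least 5 and 15 with gene bodies alone.

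**Figure D2:**
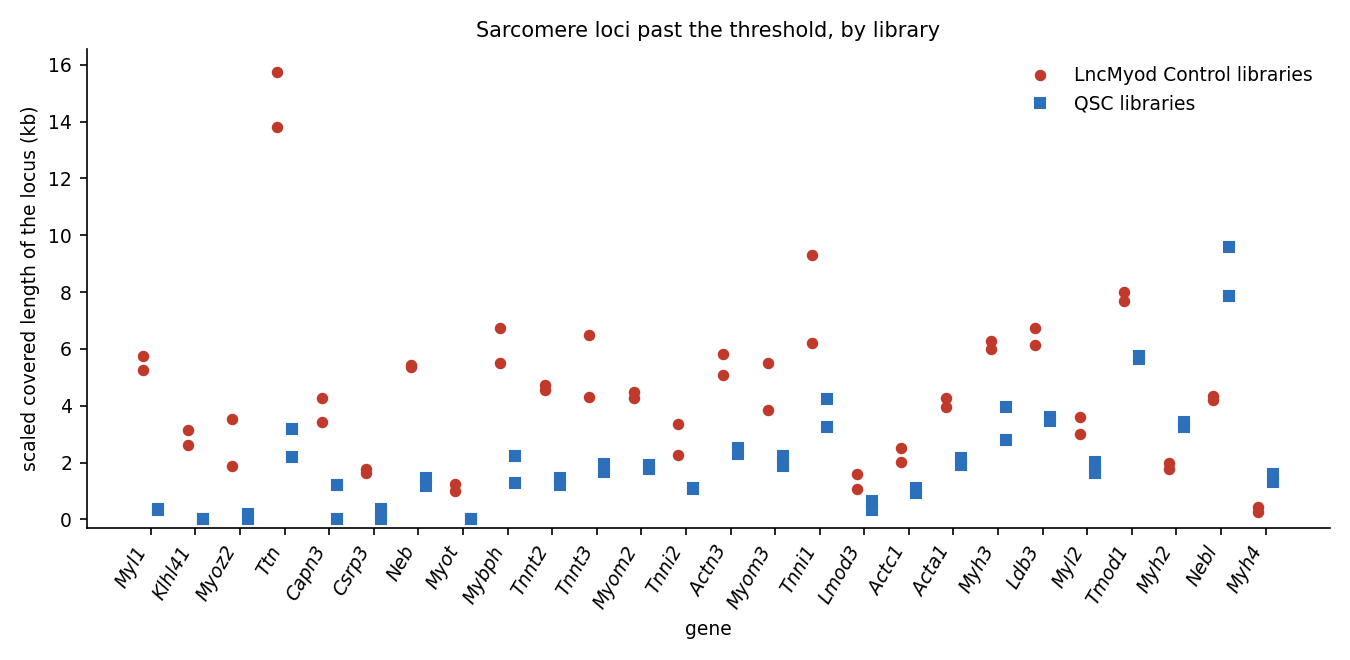
Scaled covered length (vertical axis, kb) of 26 of the 27 sarcomere loci past the threshold, with LncMyod Control libraries as circles and QSC libraries as squares, ordered by log2 change. The plotted loci that rose have both LncMyod Control libraries above both QSC libraries, and Myh2, Nebl and Myh4 at the right have them below.

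Gene starts were compared apart from gene length. A peak within 1 kb of the start was LncMyod Control-specific at 840 of 32619 starts (2.58%) and QSC-specific at 524 (1.61%). Among the sarcomere genes, 21 of 58 starts were LncMyod Control-specific and 1 was QSC-specific, that of Myh4. Those 21 starts belong to 19 of 46 genes, namely Myh3, Myh8, Myl2, Mylpf, Acta1, Actc1, Tnnt1, Tnni1, Tnnc1, Mybph, Myom1, Myom3, Xirp2, Klhl41, Smpx, Csrp3, Unc45b, Trim63 and Capn3. Several of them, such as the troponin gene Tnnc1 (log2 change 0.18, adjusted p = 0.400) and the myosin chaperone gene Unc45b (log2 change −0.33, adjusted p = 0.113), did not pass over the whole locus. The sarcomere count was 23 or 22 without LncMyod Control replicate 1 or 2, 29 or 21 without QSC replicate 1 or 2, 17 with lists of equal length, and 7 when a peak had to cover 50% of the window. Over all starts the order of the classes turned in 2 of these settings. It was 508 LncMyod Control-specific against 1090 QSC-specific with lists of equal length, and 371 against 1209 with 50% of the window covered.

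Some starts of other muscle lists were specific too. LncMyod Control-specific starts were 5 of 39 in muscle metabolism (Ak1, Mb and Cox8b) and 2 of 17 in excitation-contraction coupling (Casq2 and Hrc). The metabolism list also had 1 QSC-specific start, that of the uncoupling protein gene Ucp3. Other QSC-specific starts of listed genes were those of Tenm4 and Nfix in the quiescence list, Bmp4, the BMP-family growth inhibitor Mstn, the hepatocyte growth factor gene Hgf, the utrophin gene Utrn, the matrix genes Col18a1 and Postn, and the mural marker Vtn. In the fibroadipogenic marker list 3 of 18 starts were QSC-specific, those of Dpt, Has1 and Pparg, against 1.61% of all starts.

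**Figure D3:**
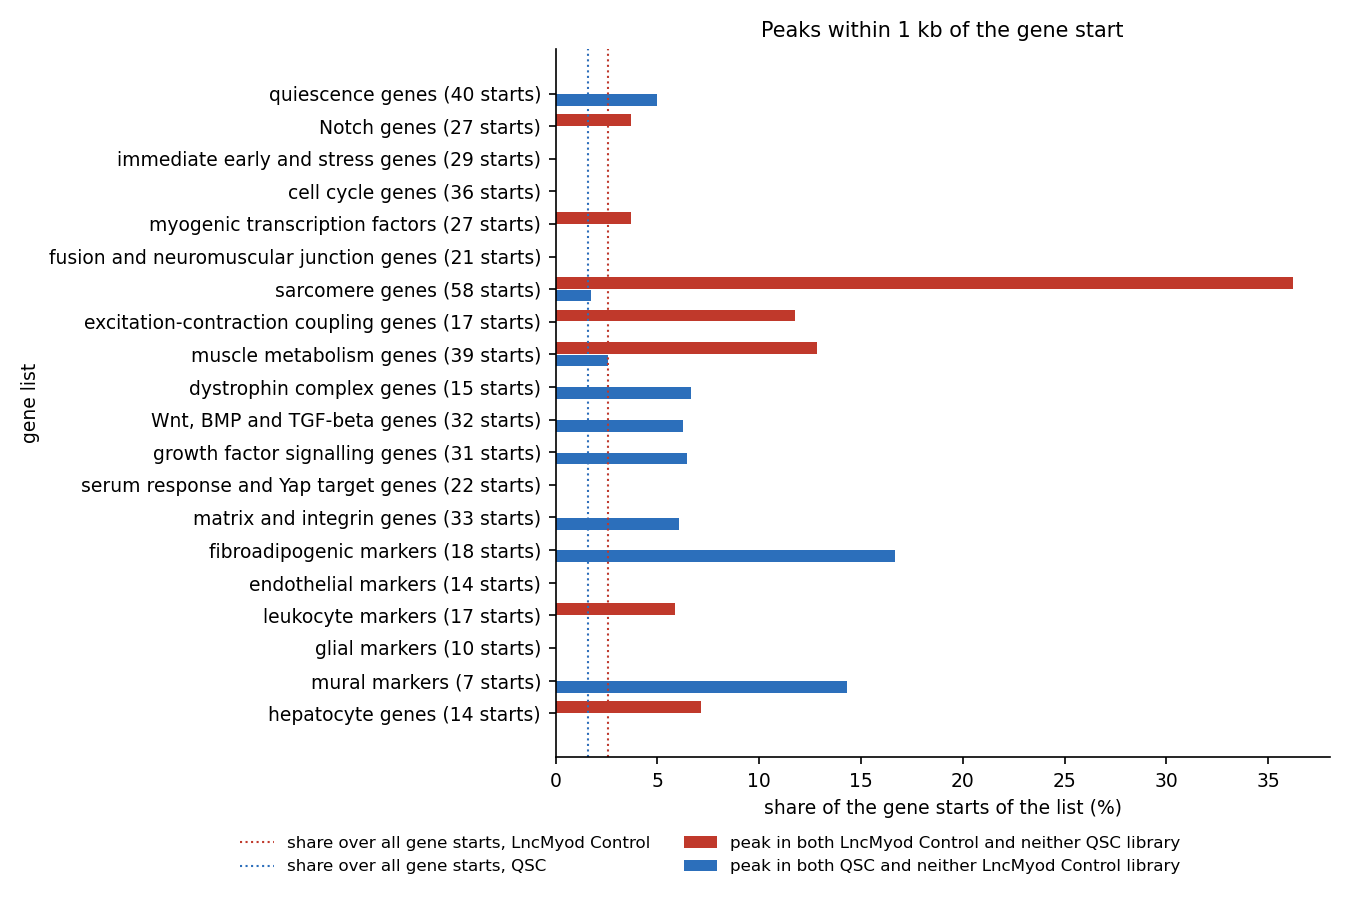
Share of gene starts of each list (horizontal axis, percent) with a peak within 1 kb in both LncMyod Control and neither QSC library (upper bars) or the reverse (lower bars), with dotted lines for all 32619 starts (2.58% and 1.61%). The sarcomere list stands out, with 21 of 58 starts LncMyod Control-specific.

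The motifs marked in these sequences were also counted over all promoters. In RefSeq promoters of 300 bases (250 before the start and 50 after it), CAGCTG occurred in 33.5% of the 528 with a LncMyod Control-specific peak and 15.7% of the 484 with a QSC-specific peak, against 16.4% of all 32619. CAGGTG, another E-box, occurred in 29.5% and 19.2%, against 20.3% of all. A Mef2 site occurred in 5.87% and 2.69%, against 3.11% of all, and a CArG box in 2.08% and 1.45%, against 1.64% of all. GGAATG, a Tead motif, occurred in 19.3% and 18.4%, against 14.6% of all, and AACCACA, a Runx motif, in 10.0% and 5.37%, against 5.29% of all. TGANTCA, the AP-1 motif, was at 11% and 12.4%, against 7.85% of all, while GTAAACA, a forkhead motif, was at 2.08% and 5.37%, against 3.67% of all. The full nuclear factor I motif was in none of either class and in 12 of all promoters. The median GC content was 53.0% in the LncMyod Control class, 51.2% in the QSC class and 53.0% over all promoters. Both strands were searched, each motif by itself, and matches may overlap. A match describes the letters only, several starts of a gene share sequence, and no test was made.

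Excitation-contraction coupling loci, which link the nerve impulse to calcium release, rose at 5 of 26 and fell at none, against 9.96% and 6.95% of all loci, with a median log2 change of 0.23. Casq2 was the clearest. It had 7.22 and 6.11 kb in LncMyod Control, against 0.559 and 0.698 kb in QSC (log2 change 2.67, SE 0.20, adjusted p = 0.00189), held 6 LncMyod Control-specific regions, and passed in all 4 fits that left out 1 library. Jph2 (a junctophilin that joins membranes), Atp2a1 (the fast muscle calcium pump) and Scn4a (the muscle sodium channel) rose by 0.79, 0.93 and 1.14 on the log2 scale. Ryr1, the calcium release channel, had 8.59 and 12.1 kb in LncMyod Control, against 5.82 and 7.01 kb in QSC (adjusted p = 0.137). The list had 1 or 2 rising loci without LncMyod Control replicate 1 or 2, and 2 or 1 without QSC replicate 1 or 2.

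Muscle metabolism loci rose at 3 of 30 and fell at none, close to the share over all loci, with a median log2 change of 0.05. The 3 were Ak1 (adenylate kinase), Ckmt2 (mitochondrial creatine kinase) and Cox6a2 (a muscle subunit of cytochrome oxidase), and Ckmt2 and Cox6a2 were listed at 0 in both QSC libraries. Ckm, the muscle creatine kinase, had 3.80 and 3.70 kb in LncMyod Control, against 1.44 and 2.89 kb in QSC (adjusted p = 0.0907). Dystrophin complex loci, which anchor the fibre to the matrix, rose at 2 of 17 and fell at 3, against 9.96% and 6.95% of all loci, with a median log2 change of −0.04. Sgcd (delta-sarcoglycan) rose, while Utrn, Sntb2 and Sgcb fell. Utrn, the dystrophin relative, had 17.2 and 16.6 kb in LncMyod Control, against 24.7 and 23.5 kb in QSC (log2 change −0.50, SE 0.14, adjusted p = 0.0474). Sgcd turned to −0.26 with lists of equal length and Sgcb to 0.067 with peaks of −log10 q of at least 5. Only Sgcd of the 8 loci past the threshold in both lists passed in all 4 fits that left out 1 library.

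Among 30 myogenic transcription factor loci, 7 rose and 1 fell, against 9.96% and 6.95% of all loci, with a median log2 change of −0.02. Myog (myogenin, which drives terminal differentiation; chromosome 1, 134290004 to 134292548) had 5.63 and 4.84 kb in LncMyod Control, against 1.5 and 2.40 kb in QSC (log2 change 1.25, SE 0.20, adjusted p = 0.00973). All 4 libraries had a peak at the Myog start, and the locus held 2 LncMyod Control-specific regions. The Myog change turned to −0.39 with peaks of −log10 q of at least 5 and to −0.16 with lists of equal length. Its adjusted p was 0.0708 or 0.0537 without LncMyod Control replicate 1 or 2, and 0.0551 or 0.0326 without QSC replicate 1 or 2. Myod1 (MyoD) had 3.37 and 3.47 kb in LncMyod Control, against 2.03 and 2.21 kb in QSC (log2 change 0.58, SE 0.16, adjusted p = 0.0466). With the replicate block the adjusted p of Myod1 was 0.0624. Without 1 library its adjusted p was 0.152 to 0.199, and with the gene body alone its change turned to −0.16.

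The other factors that rose were Mef2c (log2 change 0.49), Tead4 (0.58), Smyd1, a muscle chromatin enzyme (0.91), and the serum response factor partners Myocd (1.78) and Mrtfb (0.43). Tead4 had 9.52 and 9.45 kb in LncMyod Control, against 5.95 and 6.38 kb in QSC (adjusted p = 0.00938), with 6 LncMyod Control-specific regions and no QSC-specific one. Msc (musculin, a repressor of MyoD) fell, with 1.3 and 1.14 kb in LncMyod Control, against 3.03 and 2.61 kb in QSC (log2 change −0.95, SE 0.23, adjusted p = 0.0326). Pax7, Pax3, Myf5 and Myf6 did not pass. Pax7 had 11.4 and 8.90 kb in LncMyod Control, against 11 and 13.0 kb in QSC (adjusted p = 0.298), with overlapping groups, as had Pax3 (adjusted p = 0.492). Myf5 and its neighbour Myf6, whose loci share peaks, were lower in both LncMyod Control libraries without passing (adjusted p = 0.0864 and 0.0696). With 50 kb on both sides both passed, Myf5 at −0.83 (adjusted p = 0.00849) and Myf6 at −0.85 (adjusted p = 0.00798). Myf5 also passed by number of peaks (adjusted p = 0.0320). The number of rising factors was 1 or 0 without LncMyod Control replicate 1 or 2, and 1 or 2 without QSC replicate 1 or 2.

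Fusion and neuromuscular junction loci rose at 8 of 31 and fell at 1, against 9.96% and 6.95% of all loci, with a median log2 change of 0.33. These loci held 97 LncMyod Control-specific and 24 QSC-specific regions, against 23292 and 10904 summed over all loci tested. Dysf (dysferlin, a membrane repair protein) had 15.7 and 18.1 kb in LncMyod Control, against 6.94 and 7.11 kb in QSC (log2 change 1.21, SE 0.12, adjusted p = 0.00318). Its relative Myof (myoferlin, active in myoblast fusion) had 13.0 and 13.5 kb in LncMyod Control, against 7.19 and 8.05 kb in QSC (log2 change 0.76, SE 0.09, adjusted p = 0.00481). Dysf held 11 LncMyod Control-specific regions and Myof 8. Dok7, Rapsn and Colq, which build or anchor the acetylcholine receptor synapse, rose by 0.89, 0.94 and 1.19, and Dock1, Cdon and Kirrel3 by 0.85, 0.45 and 0.46. Cdon, a cell-surface receptor that promotes myogenesis, turned to −0.38 with peaks of −log10 q of at least 5 and to −0.011 with lists of equal length.

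Musk, the receptor kinase that organises that synapse, fell. It had 3.70 and 3.96 kb in LncMyod Control, against 7.12 and 7.84 kb in QSC (log2 change −0.88, SE 0.15, adjusted p = 0.0112; 0.0633 to 0.0889 without 1 library). The fusogen genes did not pass. Mymk (myomaker) had 6.18 and 6.91 kb in LncMyod Control, against 3.97 and 2.06 kb in QSC (adjusted p = 0.0899), and Mymx (myomerger) 4.11 and 3.89 kb in LncMyod Control, against 3.72 and 3.79 kb in QSC (adjusted p = 0.808). Mymk passed with the replicate block (log2 change 1.06, adjusted p = 0.0400) and with 50 kb on both sides (0.0160), and Mymx with the gene body alone (0.0361). The list had 5 or 3 rising loci without LncMyod Control replicate 1 or 2 and 3 or 4 without QSC replicate 1 or 2, and Myof, Dysf and Dok7 passed in all 4. By number of peaks Dok7 was at 0.44 (adjusted p = 0.0710).

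**Figure D4:**
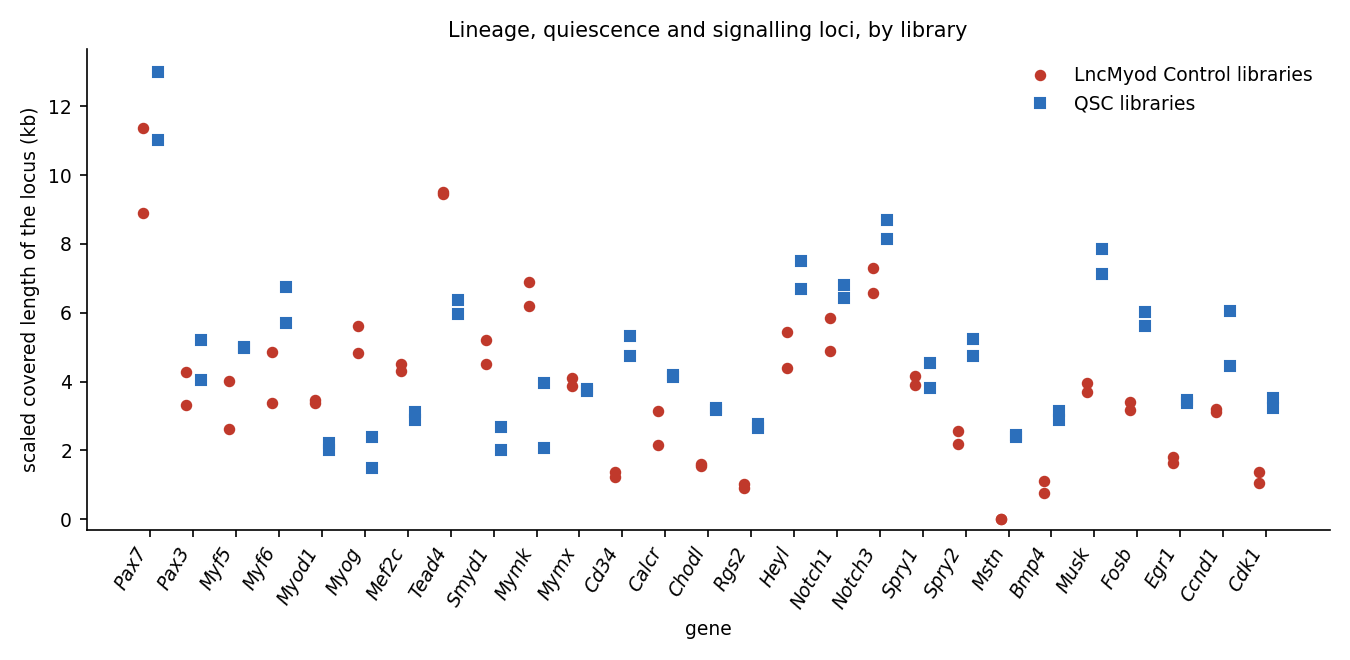
Scaled covered length (vertical axis, kb) of lineage, quiescence and signalling loci, with LncMyod Control libraries as circles and QSC libraries as squares. Myog, Tead4 and Smyd1 are higher in both LncMyod Control libraries, Cd34, Mstn, Bmp4 and Musk are lower, and Pax7 and Spry1 overlap.

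Quiescence loci leaned the other way. Of 41 tested, 9 fell and 3 rose, against 6.95% and 9.96% of all loci, with a median log2 change of −0.32. Cd34 (a sialomucin used to sort satellite cells; chromosome 1, 194938821 to 194961292) had 1.38 and 1.24 kb in LncMyod Control, against 5.31 and 4.75 kb in QSC (log2 change −1.61, SE 0.24, adjusted p = 0.00748). Rgs2, a brake on G-protein signalling, had 0.904 and 1.02 kb in LncMyod Control, against 2.65 and 2.76 kb in QSC (log2 change −1.13, SE 0.14, adjusted p = 0.00492). Nfia, a nuclear factor I gene, had 24.4 and 25.5 kb in LncMyod Control, against 44.4 and 43.3 kb in QSC (log2 change −0.80, SE 0.11, adjusted p = 0.00606). Its locus had 7 LncMyod Control-specific and 19 QSC-specific regions. Chodl (a lectin-like membrane protein), Itgb1 (integrin beta-1), Tcf4, Tnxb, Kcnma1 (a potassium channel) and Ptprz1 fell as well.

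Cdh2, Ebf1 and Pdgfd were the quiescence genes that rose. Cdh2 (N-cadherin, a niche adhesion molecule) had 13.2 and 12.1 kb in LncMyod Control, against 6.01 and 6.46 kb in QSC (log2 change 0.97, SE 0.11, adjusted p = 0.00433). Calcr, the calcitonin receptor, did not pass at 2.17 and 3.15 kb in LncMyod Control, against 4.20 and 4.13 kb in QSC (adjusted p = 0.0627), nor did the Sprouty gene Spry1 (adjusted p = 0.888). Rgs2, Kcnma1 and Cdh2 passed in all 4 fits that left out 1 library. Each missed the threshold in 1 other setting, Rgs2 with the gene body alone (log2 change −0.18, adjusted p = 0.340), Kcnma1 without scaling (0.0786) and Cdh2 by number of peaks (0.0529). Cd34 missed it by number of peaks (log2 change −0.77, adjusted p = 0.0619) and with the gene body alone (−1.19, 0.0593). With peaks of −log10 q of at least 5 Cd34 was at −0.57 (adjusted p = 0.238). The adjusted p of Cd34 was 0.0497 or 0.0580 without LncMyod Control replicate 1 or 2 and 0.0676 or 0.0627 without QSC replicate 1 or 2. The list had 3 or 4 falling loci without LncMyod Control replicate 1 or 2, 2 without either QSC replicate, and 3 without scaling.

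Notch loci rose at 4 of 25 and fell at 1, against 9.96% and 6.95% of all loci, with a median log2 change of −0.02. The rising loci numbered 0 or 1 without LncMyod Control replicate 1 or 2 and 1 without either QSC replicate, and none fell in these fits. The genes that rose were Notch4, a receptor known mainly from endothelium, Maml3 (a coactivator), Lfng (a glycosyltransferase that tunes receptors) and Numbl (an inhibitor). Hey2, a target gene, fell, with 0.942 and 0.964 kb in LncMyod Control, against 2.57 and 2.69 kb in QSC (log2 change −1.11, SE 0.22, adjusted p = 0.0180; 0.0952 to 0.119 without 1 library). The satellite cell receptors Notch1 and Notch3 did not pass (adjusted p = 0.341 and 0.228), nor did the target Heyl, at 4.38 and 5.43 kb in LncMyod Control, against 6.68 and 7.50 kb in QSC (adjusted p = 0.0728). Numbl turned to −0.021 by number of peaks.

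Secreted signals and their inhibitors fell more often than they rose. Among Wnt, BMP and TGF-beta loci 5 of 36 fell and 1 rose, and among growth factor loci 6 of 32 fell and 2 rose, against 6.95% and 9.96% of all loci, with medians of −0.02 and −0.19. Mstn (myostatin, the inhibitor of muscle growth) was listed at 0 in both LncMyod Control libraries and had 2.38 and 2.45 kb in QSC (adjusted p = 0.0367; 0.149 to 0.188 without 1 library). Bmp4 had 1.10 and 0.767 kb in LncMyod Control, against 2.89 and 3.16 kb in QSC (log2 change −1.31, SE 0.24, adjusted p = 0.0140; 0.0554 to 0.106 without 1 library). Bmp6 had 5.37 and 5.43 kb in LncMyod Control, against 11.3 and 14.3 kb in QSC (log2 change −1.17, SE 0.18, adjusted p = 0.00821), with 1 LncMyod Control-specific and 6 QSC-specific regions. The Wnt receptor gene Fzd4 and the Wnt inhibitor gene Dkk2 fell too, and Wnt4 rose. By number of peaks Bmp4 was at −0.62 (adjusted p = 0.265). Bmp4 passed in 12 of the 13 settings that left out none of the 4 libraries.

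Within the growth factor list, Spry2 (an inhibitor of FGF signalling) had 2.55 and 2.19 kb in LncMyod Control, against 4.75 and 5.25 kb in QSC (log2 change −0.94, SE 0.13, adjusted p = 0.00689). Igfbp4 (which binds insulin-like growth factors) had 1.6 and 1.10 kb in LncMyod Control, against 4.05 and 4.04 kb in QSC (log2 change −1.31, SE 0.18, adjusted p = 0.00639). Fgf2, Vegfc and the pathway inhibitors Spred1 and Dusp4 also fell, while Igfbp3 and Nrg1 rose. Dusp4 turned to 0.043 with the gene body alone and Igfbp3 to −0.16 by number of peaks. By number of peaks Igfbp4 was at −0.22 (adjusted p = 0.462) and Spry2 at −0.48 (adjusted p = 0.281). Igfbp4 and Spry2 each passed in 12 of the 13 settings that left out none of the 4 libraries. The falling loci numbered 3 or 2 without LncMyod Control replicate 1 or 2 and 2 or 1 without QSC replicate 1 or 2 in the growth factor list. In the Wnt, BMP and TGF-beta list they numbered 0 without either LncMyod Control replicate and 1 without either QSC replicate.

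Immediate early and stress loci, which isolation of cells from tissue is known to switch on, fell at 5 of 31 and rose at 1, against 6.95% and 9.96% of all loci, with a median log2 change of −0.19. Fosb, an AP-1 subunit gene, had 3.40 and 3.17 kb in LncMyod Control, against 5.62 and 6.02 kb in QSC (log2 change −0.74, SE 0.13, adjusted p = 0.0116). Egr1 had 1.63 and 1.80 kb in LncMyod Control, against 3.37 and 3.47 kb in QSC (log2 change −0.82, SE 0.14, adjusted p = 0.0117). Jund, Klf4 and Nr4a1 fell and Jun rose, and each of the 29 starts of this list had a peak in all 4 libraries. With 50 kb on both sides Fosb, Nr4a1 and Jun turned to 0.088, 0.050 and −0.029, and by number of peaks Klf4 and Jun turned to 0.10 and −0.15. Fosb was at −0.15 by number of peaks (adjusted p = 0.459). With peaks of −log10 q of at least 5 Fosb was at −0.38 (adjusted p = 0.277). Fosb passed in 9 of the 13 settings that left out none of the 4 libraries. All 6 calls were lost in every fit that left out 1 library (lowest adjusted p = 0.0616 for Fosb and 0.0630 for Egr1). The part of isolation in these values was not tested.

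Few cell cycle loci passed. Of 37 tested, 2 rose (the pocket protein gene Rbl1 and the repressor gene E2f8) and 1 fell, against 9.96% and 6.95% of all loci, with a median log2 change of 0.05. None of the 37 passed without any 1 library. Cdk1, the mitotic kinase, had 1.36 and 1.04 kb in LncMyod Control, against 3.22 and 3.52 kb in QSC (log2 change −1.19, SE 0.26, adjusted p = 0.0254; 0.0892 to 0.157 without 1 library). Ccnd1 (cyclin D1) and the inhibitor genes Cdkn1a and Cdkn1c did not pass (adjusted p = 0.0913, 0.338 and 0.160).

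Serum response and Yap target loci rose at 5 of 26 and fell at none, against 9.96% and 6.95% of all loci, with a median log2 change of 0.24. They were Ankrd1, Myl9, Flna, Actb and Thbs1, genes of the actin cytoskeleton and of responses to stretch. Flna (filamin A) had 5.49 and 5.38 kb in LncMyod Control, against 3.30 and 3.52 kb in QSC (log2 change 0.60, SE 0.11, adjusted p = 0.0125; 0.0594 to 0.0782 without 1 library), and none of the 5 passed without any 1 library. Actb turned to −0.14 with the gene body alone and Myl9 to −0.23 by number of peaks. Matrix and integrin loci rose at 3 of 40 (Col6a2, Fbn2 and Itga9) and fell at 2 (Col15a1 and Lamc1), both below the shares over all loci, with a median of −0.04. Col6a2 turned to −0.036 with 50 kb on both sides. Itga9, an integrin subunit, had 13.9 and 14.8 kb in LncMyod Control, against 8.93 and 6.77 kb in QSC (log2 change 0.84, SE 0.15, adjusted p = 0.0126), with 11 LncMyod Control-specific regions. It missed the threshold without scaling (adjusted p = 0.0587) and in a fit on the 4 libraries compared (0.0525). Without 1 library its log2 change was 0.65 to 1.03.

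**Figure D5:**
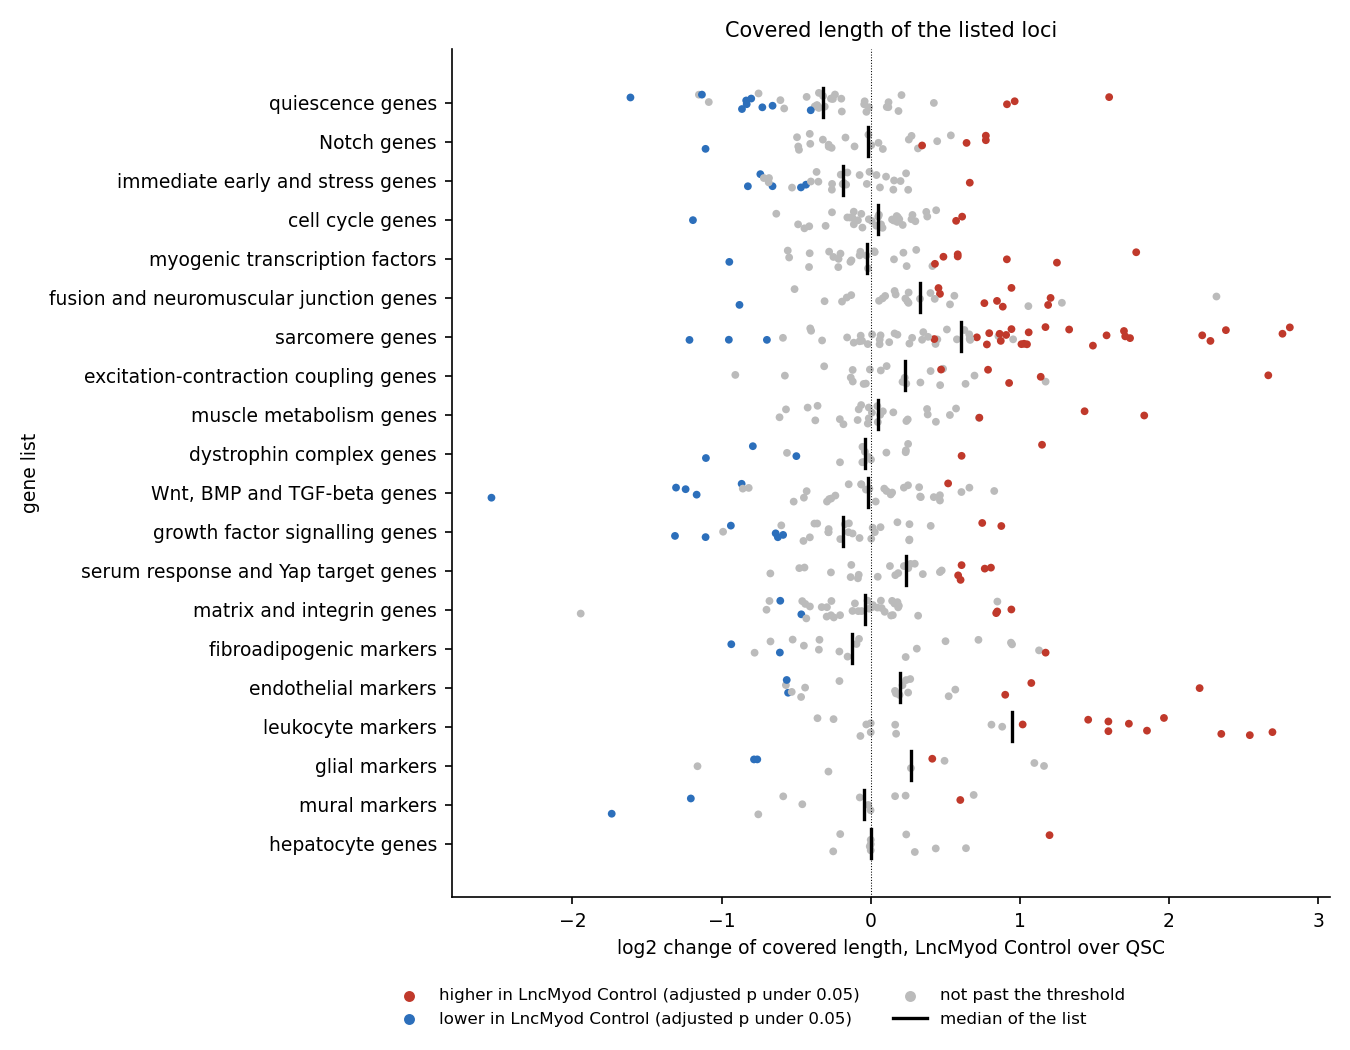
Log2 change of covered length (horizontal axis, LncMyod Control over QSC) of every tested locus of the 20 lists, coloured where it passed an adjusted p of 0.05, with a bar at the median of each list. Sarcomere (median 0.60) and leukocyte (0.95) loci lie to the right, and quiescence loci (−0.32) to the left.

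Among markers of other cell types, the leukocyte list had the most calls. Of 20 loci tested among 23, 10 rose and none fell, against 9.96% and 6.95% of all loci, with a median log2 change of 0.95, a value that depends on the pseudocount because 10 of the 20 were listed at 0 in both QSC libraries. Their summed length was 39.4 and 38.7 kb in LncMyod Control against 17.4 and 18 kb in QSC. Runx3, a Runt-family factor, made up the largest share of it, with 8.55 and 7.98 kb in LncMyod Control, against 3.04 and 2.37 kb in QSC (log2 change 1.46, SE 0.13, adjusted p = 0.00246). The defining markers had little. Ptprc (CD45) had 0.530 and 0.497 kb in LncMyod Control, Itgam 1.31 and 1.3 kb, Laptm5 2.32 and 2.51 kb, and C1qb and C1qc, whose loci share the same peaks, 1.01 and 1.01 kb, and all 5 were listed at 0 in both QSC libraries. The macrophage genes Adgre1, Lyz2 and Cybb and the B cell gene Ms4a1 were listed at 0 in all 4 libraries, and 14 of 17 leukocyte gene starts had no peak in any of the 4. Itgam, C1qb, C1qc, Cd3e, Ncf1 and Runx3 passed in all 4 fits that left out 1 library, and the list had 6 or 7 rising loci in each of these fits. Other settings ended several of these calls. With lists of equal length Ncf1 and Ptprc went to 0.00 (adjusted p = 1). Cd3e was at 0.41 by number of peaks (adjusted p = 0.429) and at 0.28 with 50 kb on both sides (adjusted p = 0.198), where Ptprc turned to −0.28. Runx3 missed the threshold by number of peaks and with peaks of −log10 q of at least 5 (adjusted p = 0.0546 and 0.0853), and Laptm5 at that q and with the gene body alone (adjusted p = 0.151 and 0.208). The list had 5 rising loci with gene bodies alone. The part of such cells in the other results was not tested, and in bulk libraries more cells of a type and more open chromatin per cell cannot be told apart.

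The other marker lists moved in both directions, against 9.96% rising and 6.95% falling over all loci. Fibroadipogenic markers rose at 1 of 20 and fell at 2 (54.8 and 59.6 kb summed in LncMyod Control, 60.8 and 59.2 kb in QSC), and endothelial markers rose at 3 of 19 and fell at 2 (54.3 and 56.9 kb against 54.6 and 55.3 kb). Glial markers rose at 1 of 9 and fell at 2 (25.4 and 28.2 kb in LncMyod Control, 24.0 and 24.7 kb in QSC), and mural markers rose at 1 of 12 and fell at 2 (30.9 and 30.1 kb against 33.8 and 35.3 kb). Hepatocyte genes, which have no part in muscle, rose at 1 of 11 (8.99 and 10.6 kb in LncMyod Control, 8.62 and 5.76 kb in QSC). Sox17, an endothelial transcription factor gene, had 1.89 and 1.72 kb in LncMyod Control and was listed at 0 in both QSC libraries (adjusted p = 0.00237), and it passed in all 4 fits that left out 1 library. With lists of equal length its change was 0.00 (adjusted p = 1). Cdh5 and Flt1 rose and Tek and Egfl7 fell, and Egfl7 turned to 0.13 with 50 kb on both sides.

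The next loci were ranked by p among protein-coding genes with a log2 change of at least 1, groups apart and no overlap with a locus ranked before. Rasgrf2 (a Ras activator; chromosome 13, 91880407 to 92131828) had 7.28 and 6.62 kb in LncMyod Control, against 0.684 and 0.863 kb in QSC (log2 change 2.55, SE 0.13, adjusted p = 0.00169). Cmah (a sialic acid hydroxylase) had 4.69 and 5.10 kb in LncMyod Control, against 0 and 0.222 kb in QSC, and Cpne4 (a calcium-binding copine) 3.95 and 5.45 kb in LncMyod Control, against 0.207 and 0.246 kb in QSC, both at the same adjusted p. The calcium exchanger gene Slc24a4, Bmerb1, Cfap97d2, Uts2 (urotensin) and Oas3 (an interferon-induced synthetase) were also among the first 10, as was Klhl41. Bmerb1, Cfap97d2, Uts2 and Oas3 were listed at 0 in both QSC libraries. Unlike Cmah and Cpne4, where ASC had at most 0.356 kb, Bmerb1, Uts2 and Oas3 had 2.88 and 2.15, 1.54 and 1.83, and 2.78 and 3.06 kb in ASC.

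On the falling side, Nat8f2 (an acetyltransferase gene), Adh1 (alcohol dehydrogenase) and Slc22a22 (a transporter gene) were listed at 0 in both LncMyod Control libraries and in both ASC and both LncMyod Knockdown libraries. They had 2.32 and 2.41, 2.04 and 1.98, and 1.45 and 1.64 kb in QSC, and Slc22a22 turned to 0.26 with 50 kb on both sides. Adam22 (a membrane receptor of the ADAM family) had 1.56 and 1.46 kb in LncMyod Control, against 7.65 and 8.46 kb in QSC (log2 change −2.09, SE 0.15, adjusted p = 0.00169). F5 (coagulation factor V) had 0.603 and 0.621 kb in LncMyod Control, against 4.11 and 5.03 kb in QSC (log2 change −2.18, SE 0.16, adjusted p = 0.00169). The F5 start went the other way, with a peak within 1 kb in both LncMyod Control libraries and in neither QSC library. Its locus held 1 LncMyod Control-specific and 3 QSC-specific regions. Kcnt2 (a potassium channel), Runx1t1 (a corepressor), Niban1, Sncaip and Tnfrsf19 (a TNF-family receptor) fell as well. Runx1t1 missed the threshold with peaks of −log10 q of at least 5 (log2 change −0.69, adjusted p = 0.116). Niban1 had 4.16 and 4.99 kb in LncMyod Control, against 15.2 and 18.9 kb in QSC, and was intermediate in ASC at 11.4 and 10.9 kb. The log2 changes of all these rising and falling loci kept their sign in each of the 4 fits that left out 1 library. Those fits share libraries with the fit that chose the loci.

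Some long genes collected specific regions in bulk. Snx29 (a sorting nexin) held 26 LncMyod Control-specific regions and 1 QSC-specific one, with 25.9 and 23.8 kb in LncMyod Control, against 6.87 and 7.03 kb in QSC (log2 change 1.76, SE 0.13, adjusted p = 0.00181). Sorcs2 (a sorting receptor) held 24 and 3, Slc24a3 (a calcium exchanger) 18 and 1, Dpp6 (a potassium channel partner) 17 and 0, and Runx2 (a Runt-family factor of bone) 17 and 2. Cdh13 (21 and 13) and Camta1 (21 and 3) also held many, but neither passed over the whole locus (adjusted p = 0.231 and 0.305). On the QSC side, Arhgap26 (a regulator of small GTPases) held 11 LncMyod Control-specific and 25 QSC-specific regions, Anks1b 5 and 22, Ptprg (a receptor phosphatase) 5 and 19, Pde4b (a cyclic AMP phosphodiesterase) 5 and 17, and Creb5 (a cyclic AMP response factor) 3 and 17. Pde4b had 11.7 and 12.3 kb in LncMyod Control, against 29.4 and 28.3 kb in QSC (log2 change −1.23, SE 0.10, adjusted p = 0.00237). Snx29, Slc24a3, Dpp6, Pde4b and Creb5 passed in all 4 fits that left out 1 library. Sorcs2 lost its call without LncMyod Control replicate 2 or QSC replicate 2 (adjusted p = 0.0503 and 0.0607), and Anks1b without QSC replicate 2 (0.0542). Arhgap26 kept its call only without LncMyod Control replicate 2 (0.0467), Ptprg only without QSC replicate 2 (0.0316) and Nfia only without LncMyod Control replicate 2 (0.0478).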

How the data were processed

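ATAC-seq peak lists of 4 of 8 libraries were compared. Each deposited list gives broad peaks with a fold enrichment (a ratio over the local background), −log10 p and q values, and a score. The tools were Trimmomatic 0.36, Bowtie2 2.3.2, SAMtools 1.3, Picard 2.9.2, MACS2 2.1.1, bedtools 2.26.0 and bcl2fastq 2.19 on build mm10, per the submitters' processing notes. The read shifts and calling settings were not given in the sources used here. Depth is unknown, and a more deeply sequenced library can give more and wider peaks.

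Gene positions came from RefSeq (GRCm38.p6). Covered length was scaled to each library's total. Loci were kept where 2 or more libraries had 200 bp or more under peaks, and were tested on log2(bp + 500) with limma 3.58.1 (R 4.3.3) and Benjamini-Hochberg adjustment, fitting all 8 libraries in 4 groups so that they share the spread. The script was tested on simulated data. Tables and figures used Python 3.11.15, numpy 2.4.6, pandas 2.3.3 and matplotlib 3.10.9.

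Genes named are the list members past the threshold, fixed lineage genes, up to 10 protein-coding genes per direction by p (log2 change of at least 1, groups apart, loci not overlapping) and up to 8 per direction by number of specific regions. A few genes that meet the rule are not reported here, but stay in the counts. Regions named are 6 per direction by mean rank of the authors' fold. The members and lists were chosen with earlier results of these data known. Deviations of libraries with the same replicate number correlated at 0.0096, so numbers were not treated as pairs. Alternatives changed scaling, pseudocount, filter, peak threshold, list length, flank, overlap, model and each library.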

Additional observations from a re-analysis of the deposited data

How the results depend on the processing

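The number of changed loci ran from 3188 without scaling to 6093 with lists of equal length, and was 7848 with 50 kb on both sides (4821 higher, 3027 lower). Without 1 library it was 1016 to 1291, with 617 to 814 higher and 390 to 477 lower. Without scaling 1014 loci were lower. With the replicate block it was 4354 (2578 higher, 1776 lower). Specific regions of LncMyod Control were 14157 with lists of equal length, and those of QSC 6317 with peaks of −log10 q of at least 5. LncMyod Control-specific gene starts were 508 with lists of equal length and 371 with 50% covered, where QSC-specific starts were 1090 and 1209. The following log2 changes turned sign. With the gene body alone they were Myod1 −0.16, Spry1 0.55, Acta1 −0.65, Myh2 0.37, Dusp4 0.043 and Actb −0.14. With 50 kb on both sides they were Slc22a22 0.26, Fosb 0.088, Jun −0.029, Nr4a1 0.050, Col6a2 −0.036, Egfl7 0.13 and Ptprc −0.28. By number of peaks they were Numbl −0.021, Jun −0.15, Klf4 0.10, Tnni2 −0.22, Igfbp3 −0.16 and Myl9 −0.23. With peaks of −log10 q of at least 5 they were Myog −0.39, Cdon −0.38 and Sgcb 0.067. With lists of equal length they were Myog −0.16, Cdon −0.011, Myl2 −0.10 and Sgcd −0.26. The causes were not tested. Of 164 named genes that passed, 41 passed in all 4 fits without 1 library. Depth is unknown, so an absent peak sets no upper limit on accessibility.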

Other observations

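Keratin genes, which serve epithelia, were looked at after their values were seen. Of 45 keratin loci tested, 12 rose and none fell, against 9.96% and 6.95% of all loci, with a median log2 change of 0.67. Listed at 0 were 4 loci in both LncMyod Control libraries and 18 in both QSC libraries, so log2 changes depend on the pseudocount. These calls were not followed in the fits that left out 1 library. Their summed covered length was 40.8 and 48.8 kb in LncMyod Control against 19.4 and 21.3 kb in QSC. Krt5, a keratin of basal epithelial cells, had 1.20 and 1.96 kb in LncMyod Control and was listed at 0 in both QSC libraries (adjusted p = 0.00354, limma). Keratin genes lie in clusters on chromosomes 11 and 15, and neighbouring loci share peaks.

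The locus of the muscle microRNAs miR-206 and miR-133b was also looked at after its values were seen, and was not tested. Mir206 (chromosome 1, 20679010 to 20679082) had 3.74 and 4.55 kb in LncMyod Control, against 1.36 and 1.53 kb in QSC. Mir133b had 3.72 and 3.97 kb in LncMyod Control, against 1.72 and 1.88 kb in QSC, and both loci share peaks. The mature forms, from RefSeq, have different seeds (bases 2 to 8, in capitals).
miR-206-3p: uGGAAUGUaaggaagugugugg
miR-133b-3p: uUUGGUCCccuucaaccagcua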
